A study of Rattus norvegicus with 12 samples.

Results

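The integrins, cadherins and protocadherins are the cell surface receptors with which cells hold on to the matrix and to each other. They were taken by symbol, as every integrin alpha or beta line (Itga and Itgb, leaving out the binding proteins named Itgb1bp and Itgb3bp), every numbered cadherin (Cdh) and every protocadherin (Pcdh), and made up 98 of the 22384 lines that carry a gene symbol. The 98 lines hold 96 symbols: 17 integrin alpha subunits, 8 integrin beta subunits, the integrin beta-like gene Itgbl1, 23 cadherins, 35 clustered protocadherins on 37 lines and 12 other protocadherins. Of the 98 lines, 31 had a mean of at least 1 FPKM (fragments per kilobase, relative to library size) over the 12 libraries and were tested, and 67 were not tested.

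An integrin is a dimer of an alpha and a beta subunit, and the pair decides the ligand: Itgb1 forms the collagen and laminin receptors with Itga1, Itga2, Itga3 and Itga6, while Itgb3, Itgb5 and Itgb8 join Itgav to bind vitronectin or latent TGF-beta. Classical cadherins bind the same cadherin on the next cell and are tied to actin by catenins. Cdh1 (E-cadherin) is the cadherin of epithelia and Cdh2 (N-cadherin) that of mesenchymal and neural cells, although hepatocytes are known to carry both. Clustered protocadherins lie in tandem gene arrays and are best known from neurons.

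RNA was measured by RNA-seq in rat hepatic progenitor cells (HPCs), the fetal liver cells that can form hepatocytes and bile duct cells, with gestation day 13.5 as the labelled age. The 6 groups held 2 libraries each: cells labelled Tnfrsf1α-/- with and without tumour necrosis factor alpha (TNFα), cells labelled Tnfrsf1β-/- with and without TNFα, and wild-type cells with and without TNFα. TNFα was given for 1 hour, the other libraries were untreated, and the 2 gene names stand for the TNF receptors TNFR1 and TNFR2. Whether replicates are separate cultures is not said in the labels, so the p-values speak only of the spread among these libraries, and that spread may be technical.

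The RNA levels of the 2 receptor genes did not follow the genotype labels in every group. A level over the whole gene does not show whether the transcript is intact, so it neither bears out nor refutes a label. Tnfrsf1a was not lower under its own label, at 5.65 and 5.95 in treated and 5.94 and 6.13 in untreated libraries labelled Tnfrsf1α-/-, against 5.65 and 5.63 in treated and 5.45 and 5.15 in untreated wild-type libraries (all levels are log2(FPKM + 1)). Tnfrsf1b was listed at 0 in the 4 libraries labelled Tnfrsf1β-/- and in both untreated wild-type libraries, against 2.58 and 2.43 in treated wild type, and it had 0 and 4.09 in the treated libraries labelled Tnfrsf1α-/-. The summed FPKM was 447554 to 472935 in the 4 untreated libraries with a knockout label and 1071530 to 2085916 in the other 8. The treated libraries labelled Tnfrsf1α-/- stood apart from each other: 1231 of the 11860 tested genes differed by over 2 log2 units within that pair, against 8 to 127 in the other 5 pairs, and 6 members were among them (Cdh3, Itga1, Itga2b, Itgb1, Itgb3 and Itgb4). Of 8 hepatocyte markers 7 reached 1 FPKM in both treated wild-type libraries, with summed levels of 57.2 and 57.5, while the sum was at most 1.17 in every other library. Of 11 hepatic progenitor and cholangiocyte markers 8 reached 1 FPKM in both treated wild-type libraries, with summed levels of 64.1 and 64.3, and 2 or 3 did so in each of the other 5 groups, with sums of 15.3 to 32.1. Afp and Epcam were listed at 0 outside treated wild type, while Krt7 had 7.64 to 15.11 in those 10 libraries and Krt8 and Sox9 reached 1 FPKM in part of them. The summed levels of 12 mesenchymal and stellate marker lines were 29.9 and 30.7 in treated wild-type libraries and 57.2 to 68.1 in the other 10. Not all of these lines went that way: of 8 tested, 6 were lower and 2 higher with TNFα in wild type. Tagln (10.73 and 11.37) and Dcn (8.16 and 7.72) were at their highest in treated wild type. The summed levels over the 12 libraries were 5.15 to 8.11 for 11 leukocyte markers, mostly Cd14 (3.67 to 5.65) and in 1 library also Cd68 (4.09), 0.74 to 5.37 for 7 endothelial lines, mostly Egfl7 and Tek, and 1.75 to 5.72 for 8 platelet and erythroid lines, among them a Gp1bb line. The leukocyte markers Adgre1, Laptm5 and Tyrobp, the endothelial Emcn and Kdr and the platelet Pf4 and Ppbp were listed at 0 in all 12.

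Most members were silent or nearly so. Of the 98 lines, 55 reached 1 FPKM in no library, 8 were listed at 0 in all 12, and 12 were at 1 FPKM or above in all 12. Each library had between 22 and 28 members at 1 FPKM or above. Summed over all members, the families took 0.90% and 0.86% of the FPKM in treated and 0.302% and 0.293% in untreated libraries labelled Tnfrsf1α-/-. They took 0.187% and 0.131% in treated and 0.295% and 0.304% in untreated libraries labelled Tnfrsf1β-/-, and 0.495% and 0.398% in treated and 0.270% and 0.246% in untreated wild-type libraries. The share was thus highest in the treated libraries labelled Tnfrsf1α-/- and lowest in the treated ones labelled Tnfrsf1β-/-. In RNA from bulk cells, fewer cells of a type and less RNA per cell cannot be told apart, here or in any level below.

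**Figure D1:**
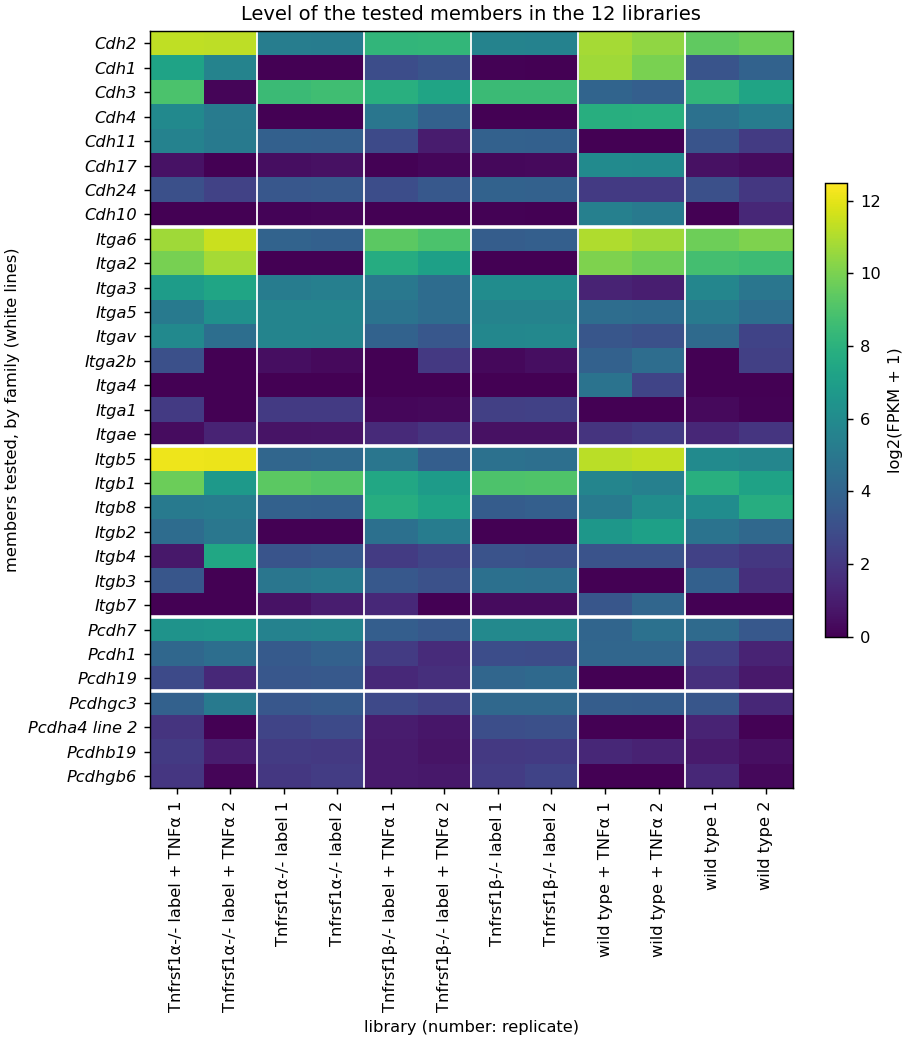
Level of the 31 tested members, as log2(FPKM + 1) on a colour scale, in each of the 12 libraries, with members in rows by family and libraries in columns. Itga2, Itgb2, Cdh1 and Cdh4 are dark in the 4 untreated libraries with a knockout label, and Cdh10, Cdh17 and Itga4 stand out in the 2 treated wild-type libraries.

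Cdh1 was high with TNFα in wild type and near 0 in untreated cells with a knockout label. Its level was 7.26 and 5.57 in treated libraries labelled Tnfrsf1α-/-, against 0.02 and 0 in untreated ones. It was 2.96 and 3.26 in treated libraries labelled Tnfrsf1β-/-, against 0.05 and 0.02 in untreated ones, and 10.71 and 9.98 in treated wild-type libraries, against 3.24 and 3.92 in untreated ones. Treated and untreated libraries did not overlap under any genotype label. By limma, Cdh1 rose with TNFα by 6.40 ± 0.51 log2 units (SE) in cells labelled Tnfrsf1α-/- (adjusted p = 2.46e-05), by 3.08 ± 0.51 in cells labelled Tnfrsf1β-/- (adjusted p = 0.00127) and by 6.76 ± 0.51 in wild type (adjusted p = 8.34e-06). The response was smaller under the Tnfrsf1β-/- label than in wild type by -3.69 ± 0.72 (adjusted p = 0.0023), but with a pseudocount of 0.1 this was -0.92 (adjusted p = 0.314) and after quantile normalization -1.73 (adjusted p = 0.0829). The response under the Tnfrsf1α-/- label differed from that of wild type by -0.36 ± 0.72 (adjusted p = 0.716), with a direction that depended on the processing.

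Cdh2 was lowest in the 4 untreated libraries with a knockout label and was the cadherin with the highest level in each of the other 8. It had 11.30 and 11.25 in treated and 5.31 and 5.25 in untreated libraries labelled Tnfrsf1α-/-. It had 8.23 and 8.28 in treated and 5.58 and 5.55 in untreated libraries labelled Tnfrsf1β-/-, and 10.82 and 10.41 in treated and 9.44 and 9.69 in untreated wild-type libraries. Treated and untreated libraries did not overlap here either. Cdh2 rose with TNFα by 5.99 ± 0.18 under the Tnfrsf1α-/- label (limma adjusted p = 4.06e-08) and by 2.69 ± 0.18 under the Tnfrsf1β-/- label (adjusted p = 1.83e-05). In wild type it rose by 1.04 ± 0.18 (adjusted p = 0.00179), but did not pass after median-ratio scaling (0.56, adjusted p = 0.0942), quantile normalization (0.17, adjusted p = 0.502) or scaling to equal totals (0.23, adjusted p = 0.383). The response exceeded that of wild type by 4.95 ± 0.26 under the Tnfrsf1α-/- label (adjusted p = 9.67e-07) and by 1.65 ± 0.26 under the Tnfrsf1β-/- label (adjusted p = 0.000738).

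Set against each other, epithelial Cdh1 was close to mesenchymal Cdh2 in the treated wild-type libraries and far below it in the other 10. FPKM is per transcript length, so the 2 genes can be compared within a library. Cdh1 minus Cdh2 was -4.04 and -5.69 in treated and -5.30 and -5.25 in untreated libraries labelled Tnfrsf1α-/-. The difference was -5.27 and -5.01 in treated and -5.52 and -5.53 in untreated libraries labelled Tnfrsf1β-/-, and -0.11 and -0.43 in treated and -6.20 and -5.78 in untreated wild-type libraries. Cdh2 was therefore above Cdh1 in all 12 libraries. Where Cdh1 is near 0, as in the untreated libraries with a knockout label, the difference is set by the Cdh2 level and by the pseudocount. The treated wild-type libraries, which alone held the hepatocyte markers, were also the ones with the smallest difference. What part those markers have in it was not tested.

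**Figure D2:**
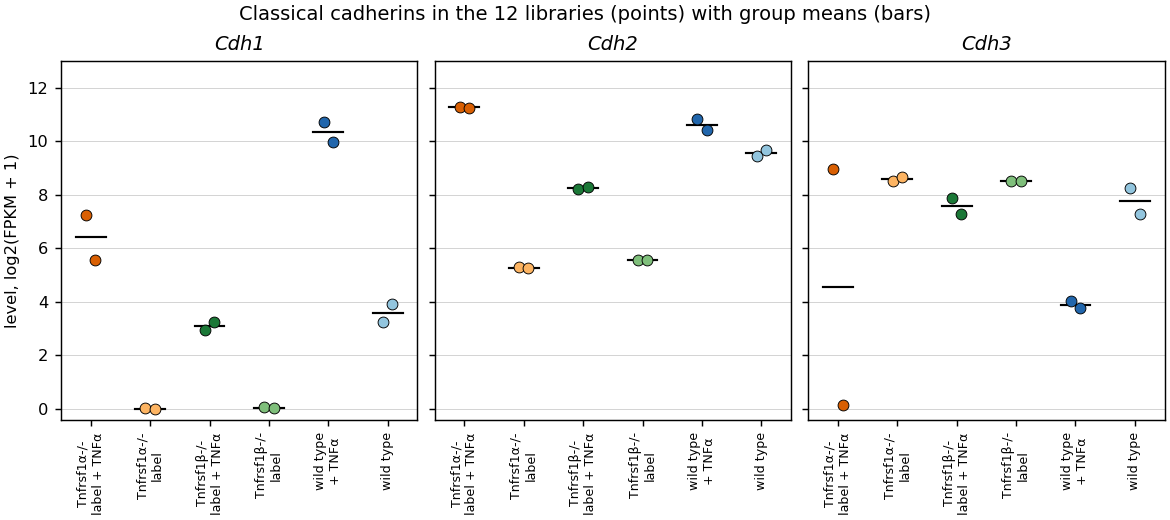
Levels of Cdh1, Cdh2 and Cdh3 as log2(FPKM + 1) on the vertical axis, with 1 point for each library and a bar at each group mean. Cdh1 sits at 10.71 and 9.98 in treated wild-type libraries and near 0 in the untreated libraries with a knockout label, while Cdh3 splits into 8.98 and 0.15 within the treated libraries labelled Tnfrsf1α-/-.

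Cdh3 (P-cadherin), whose gene is the next protein-coding neighbour of Cdh1 in the rat annotation, followed another course. It had 8.98 and 0.15 in treated and 8.53 and 8.66 in untreated libraries labelled Tnfrsf1α-/-. It had 7.88 and 7.28 in treated and 8.53 and 8.51 in untreated libraries labelled Tnfrsf1β-/-, and 4.02 and 3.77 in treated and 8.24 and 7.29 in untreated wild-type libraries. One treated library labelled Tnfrsf1α-/- was thus near 0 and its partner among the highest, and no difference of Cdh3 passed in the fit of all libraries, including -3.87 ± 2.16 with TNFα in wild type (limma adjusted p = 0.171). That one passed in a fit of the 2 groups alone and without either treated library labelled Tnfrsf1α-/-. As a share of the summed FPKM of the 23 cadherins, Cdh3 held 85.3% and 86.8% in untreated libraries labelled Tnfrsf1α-/- and 82.9% and 83.1% in untreated ones labelled Tnfrsf1β-/-, against 28.8% and 14.9% in untreated wild type. Cdh2 held the larger part in wild type, with 47.0% and 50.1% in treated and 66.5% and 79.4% in untreated libraries, beside 43.7% and 37.1% for Cdh1 in the treated ones.

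Among the other cadherins, Cdh4 (R-cadherin) was listed at 0 in all 4 untreated libraries with a knockout label. It had 5.95 and 5.20 in treated libraries labelled Tnfrsf1α-/-, 4.90 and 3.91 in treated ones labelled Tnfrsf1β-/-, and 7.86 and 7.89 in treated against 4.66 and 5.23 in untreated wild-type libraries. It rose with TNFα under all 3 genotype labels, by 2.93 ± 0.37 in wild type (limma adjusted p = 0.000282). Cdh17 (liver-intestine cadherin) and Cdh10 were found almost only with TNFα in wild type. Cdh17 had 6.0 and 5.92 there and at most 0.61 in any other library, a rise of 5.50 ± 0.21 (adjusted p = 6.63e-08), while Cdh10 had 5.46 and 5.12 there against 0 and 1.41 in untreated wild type, a rise of 4.59 ± 0.37 (adjusted p = 1.44e-05). Cdh17 and Cdh10 thus shared their libraries with the hepatocyte markers. Those libraries also lay above all others for 24.6% of all tested genes, and what part the markers have was not tested.

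Cdh11, a cadherin known from mesenchymal cells, ran the other way. It had 5.55 and 5.16 in treated libraries labelled Tnfrsf1α-/-, against 3.82 and 3.80 in untreated ones. It had 2.81 and 0.95 in treated libraries labelled Tnfrsf1β-/-, against 3.88 and 3.83 in untreated ones, and 0 and 0.01 in treated wild-type libraries, against 3.24 and 2.16 in untreated ones. It fell with TNFα in wild type by 2.69 log2 units (SE 0.56, adjusted p = 0.00464), and with TNFα it was 5.35 ± 0.56 higher under the Tnfrsf1α-/- label than in wild type (adjusted p = 0.000108). Cdh11 was lowest where the summed mesenchymal markers were lowest, in treated wild-type libraries, though Tagln and Dcn of that list were highest there. What part these markers have in the Cdh11 level was not tested. Cdh24 lay between 2.01 and 3.94 in all 12 libraries. Cdh5 (VE-cadherin), the cadherin of endothelium, reached at most 0.28.

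Outside the untreated libraries with a knockout label, the integrin alpha subunits were led by Itga6 and Itga2, of laminin and collagen receptors. In those untreated libraries Itga3, Itga5 and Itgav were above both. Itga2, the collagen-binding subunit of platelets and epithelia, had 9.92 and 10.82 in treated libraries labelled Tnfrsf1α-/-, against 0 and 0.03 in untreated ones. It had 7.76 and 7.11 in treated libraries labelled Tnfrsf1β-/-, against 0.01 and 0.04 in untreated ones, and 10.08 and 9.74 in treated wild-type libraries, against 8.75 and 8.55 in untreated ones. The gene was thus near 0 in the untreated libraries with either knockout label and among the highest members in the other 8. It rose with TNFα by 10.35 ± 0.32 under the Tnfrsf1α-/- label (limma adjusted p = 4.62e-08), by 7.41 ± 0.32 under the Tnfrsf1β-/- label (adjusted p = 9.14e-07) and by 1.25 ± 0.32 in wild type (adjusted p = 0.0123). Its response exceeded that of wild type by 9.10 ± 0.45 and 6.15 ± 0.45 under the Tnfrsf1α-/- and Tnfrsf1β-/- labels (adjusted p = 7.57e-07 and 8.25e-06).

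Itga6, a laminin receptor subunit used to sort epithelial progenitors, followed the same libraries. It had 10.73 and 11.52 in treated libraries labelled Tnfrsf1α-/-, against 4.0 and 3.85 in untreated ones. It had 9.33 and 8.97 in treated libraries labelled Tnfrsf1β-/-, against 3.66 and 3.78 in untreated ones, and 11.03 and 10.74 in treated wild-type libraries, against 9.73 and 10.10 in untreated ones. In contrast to Itga2 it was never near 0. It rose with TNFα by 7.20 ± 0.28, 5.42 ± 0.28 and 0.97 ± 0.28 in cells labelled Tnfrsf1α-/-, cells labelled Tnfrsf1β-/- and wild type (adjusted p = 1.7e-07, 2.86e-06 and 0.0209). The wild-type rises of Itga2 and Itga6 no longer passed after median-ratio scaling, quantile normalization or scaling to equal totals.

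Itga3, the other laminin receptor subunit, was low in 1 group. It had 6.91 and 7.33 in treated libraries labelled Tnfrsf1α-/-, against 5.24 and 5.41 in untreated ones. It had 5.02 and 4.40 in treated libraries labelled Tnfrsf1β-/-, against 6.06 and 6.06 in untreated ones, and 1.26 and 1.06 in treated wild-type libraries, against 5.73 and 4.90 in untreated ones. With TNFα, wild type was below all other libraries. Itga3 fell by 4.16 ± 0.32 with TNFα in wild type (adjusted p = 9.07e-06), and with TNFα it was 5.96 ± 0.32 and 3.55 ± 0.32 higher than in wild type under the Tnfrsf1α-/- and Tnfrsf1β-/- labels (adjusted p = 9.88e-07 and 2.68e-05).

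Itga5, the fibronectin receptor subunit, lay between 4.36 and 6.28 in all 12 libraries. Itgav, the common partner of Itgb3, Itgb5 and Itgb8, had 5.93 and 4.51 in treated and 5.65 and 5.61 in untreated libraries labelled Tnfrsf1α-/-, 3.92 and 3.38 in treated and 5.79 and 5.84 in untreated ones labelled Tnfrsf1β-/-, and 3.33 and 3.08 in treated and 4.30 and 2.54 in untreated wild type. Untreated, it was 2.21 ± 0.59 and 2.40 ± 0.59 higher under the Tnfrsf1α-/- and Tnfrsf1β-/- labels than in wild type (adjusted p = 0.0126 and 0.0088), and neither difference passed without wild-type replicate 2. Itga4, a subunit of leukocytes that binds VCAM1, had 4.77 and 2.57 in treated wild-type libraries and was listed at 0 in the other 10. Among the leukocyte markers Cd14 had 3.99 and 4.18 in these treated wild-type libraries and Ptprc was listed at 0, and their part in the Itga4 level was not tested. Itga1, another collagen receptor subunit and the protein-coding neighbour of Itga2, had 2.11 and 0 in treated and 2.12 and 2.11 in untreated libraries labelled Tnfrsf1α-/-, 0.22 and 0.27 in treated and 2.36 and 2.44 in untreated ones labelled Tnfrsf1β-/-, and 0.01 and 0 in treated and 0.30 and 0.06 in untreated wild type. Untreated libraries with a knockout label therefore held Itga1 without Itga2, and wild-type libraries Itga2 with little Itga1.

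**Figure D3:**
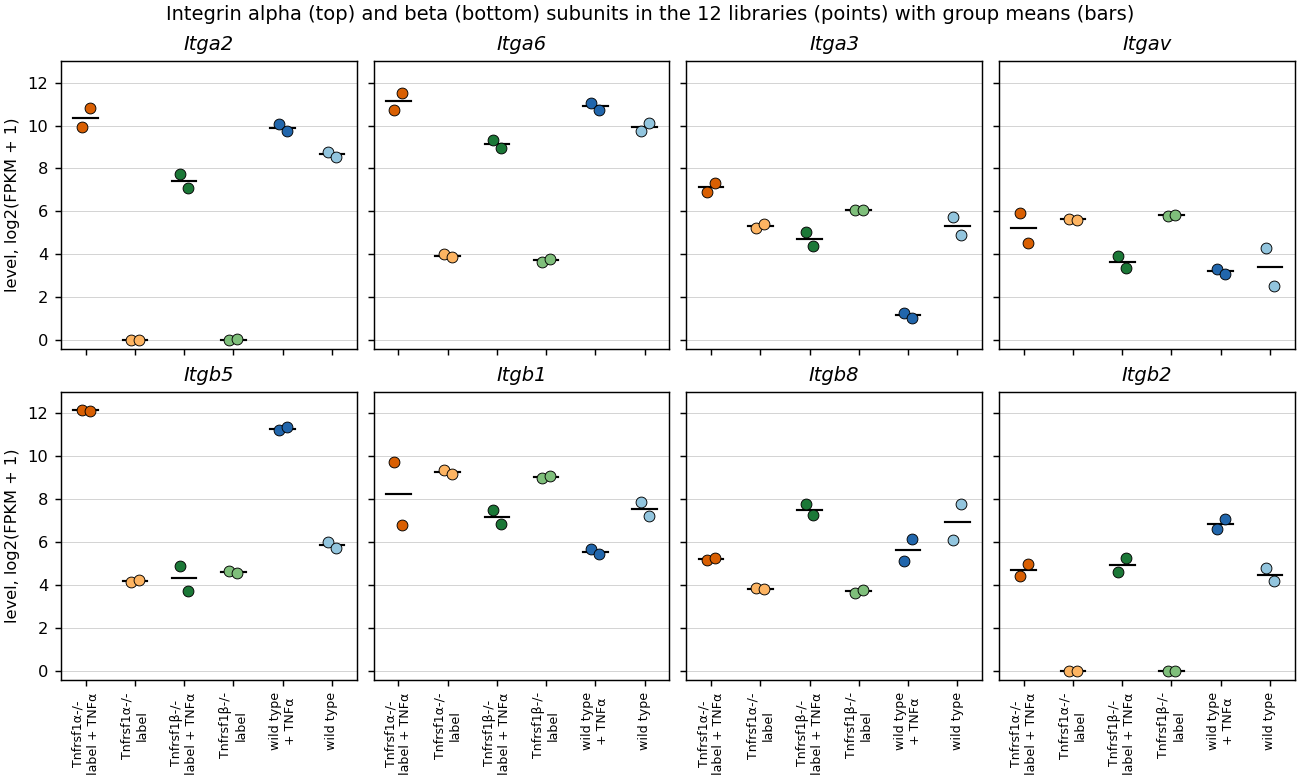
Levels of 4 integrin alpha subunits (top) and 4 beta subunits (bottom) as log2(FPKM + 1) on the vertical axis, with 1 point for each library and a bar at each group mean. Itgb5 stands at 12.16 and 12.13 in treated libraries labelled Tnfrsf1α-/- and 11.21 and 11.36 in treated wild type, and at most 6.0 in the other 8.

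Itgb5, the vitronectin receptor partner of Itgav, separated the treated groups. It had 12.16 and 12.13 in treated libraries labelled Tnfrsf1α-/-, against 4.14 and 4.25 in untreated ones. It had 4.90 and 3.74 in treated libraries labelled Tnfrsf1β-/-, against 4.67 and 4.58 in untreated ones, and 11.21 and 11.36 in treated wild-type libraries, against 6.0 and 5.72 in untreated ones. Only the libraries labelled Tnfrsf1β-/- overlapped between treated and untreated. It rose with TNFα by 7.95 ± 0.32 under the Tnfrsf1α-/- label (adjusted p = 2.27e-07) and by 5.43 ± 0.32 in wild type (adjusted p = 1.57e-06), while the difference under the Tnfrsf1β-/- label was -0.30 ± 0.32 and did not pass, though it did, as a fall, with equal totals and without replicate 1 of those treated libraries. Tested directly, the response under the Tnfrsf1β-/- label was below that of wild type by -5.73 ± 0.46 (adjusted p = 1.41e-05), and with TNFα the cells labelled Tnfrsf1β-/- were 6.96 log2 units below wild type (SE 0.32, adjusted p = 2.56e-07). The response under the Tnfrsf1α-/- label was above that of wild type by 2.52 ± 0.46 (adjusted p = 0.00375).

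Itgb1, the most widely shared beta subunit, had 9.72 and 6.78 in treated and 9.37 and 9.18 in untreated libraries labelled Tnfrsf1α-/-. It had 7.49 and 6.86 in treated and 9.01 and 9.07 in untreated libraries labelled Tnfrsf1β-/-, and 5.68 and 5.43 in treated and 7.89 and 7.21 in untreated wild-type libraries. The treated wild-type libraries were the lowest, but the difference with TNFα in wild type, -2.0 ± 0.76, did not pass in the fit of all libraries (adjusted p = 0.0596). It passed after median-ratio scaling, quantile normalization or scaling to equal totals, in a fit of the 2 groups alone, and without either treated library labelled Tnfrsf1α-/-. Itgb8, which with Itgav binds latent TGF-beta, had 5.16 and 5.27 in treated and 3.86 and 3.81 in untreated libraries labelled Tnfrsf1α-/-. It had 7.77 and 7.25 in treated and 3.64 and 3.77 in untreated libraries labelled Tnfrsf1β-/-, and 5.13 and 6.13 in treated and 6.08 and 7.77 in untreated wild-type libraries. It rose with TNFα under the Tnfrsf1β-/- label, by 3.80 ± 0.52 (adjusted p = 0.000573), and the wild-type libraries overlapped. Itgb8 was above Itgb5 in the treated libraries labelled Tnfrsf1β-/-, and Itgb5 above Itgb8 in the other treated libraries.

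Itgb2, the beta subunit of leukocyte integrins, had 4.41 and 4.97 in treated libraries labelled Tnfrsf1α-/-, 4.63 and 5.27 in treated ones labelled Tnfrsf1β-/-, and 6.60 and 7.09 in treated against 4.78 and 4.20 in untreated wild type. It was listed at 0 in the 4 untreated libraries with a knockout label. The 11 leukocyte markers summed to 5.45 to 6.19 in these 4 libraries, most of it Cd14, and their part in the Itgb2 level was not tested. Itgb7, the partner of Itga4, had 3.32 and 4.11 in treated wild-type libraries and at most 1.43 elsewhere, so both subunits of that dimer were highest in the same libraries. Itgb3 had 3.34 and 0 in treated and 4.90 and 5.14 in untreated libraries labelled Tnfrsf1α-/-, and was listed at 0 in treated wild type against 3.85 and 1.68 in untreated wild type. Its fall under the Tnfrsf1α-/- label had a limma adjusted p of 0.0498 and did not pass in 12 of 19 alternatives. Itgb4, the hemidesmosome partner of Itga6, was between 0.80 and 3.44 in 11 libraries and at 7.45 in the second treated library labelled Tnfrsf1α-/-, and no difference of it passed in the fit of all libraries. The differences with TNFα in wild type and under the Tnfrsf1β-/- label passed without either of the treated libraries labelled Tnfrsf1α-/-. Under the Tnfrsf1α-/- label such a fit rests on 1 treated library, either the one at 7.45 or its far lower partner.

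The make-up of the families shifted with these levels. Among the 17 alpha subunits, Itga6 and Itga2 held 58.9% and 33.4%, and 58.6% and 36.1%, of the summed FPKM in the treated libraries labelled Tnfrsf1α-/-. In untreated libraries with a knockout label Itga2 held at most 0.0156%, Itga6 held 6.34% to 9.71%, and Itga3, Itga5 and Itgav shared the rest. Among the 8 beta subunits, Itgb5 held 83.5% and 92.8% in treated libraries labelled Tnfrsf1α-/- and 92.3% and 90.7% in treated wild type, against 15.3% and 11.8% in untreated wild type. In treated libraries labelled Tnfrsf1β-/- the share of Itgb5 was 6.24% and 3.76%, and Itgb8 held 46.8% and 46.0% beside 38.7% and 35.0% for Itgb1. Itgb1 held 88.3% to 90.7% in the untreated libraries with a knockout label. Each of these shares is a part of its own library and moves when any other member of the family moves.

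**Figure D4:**
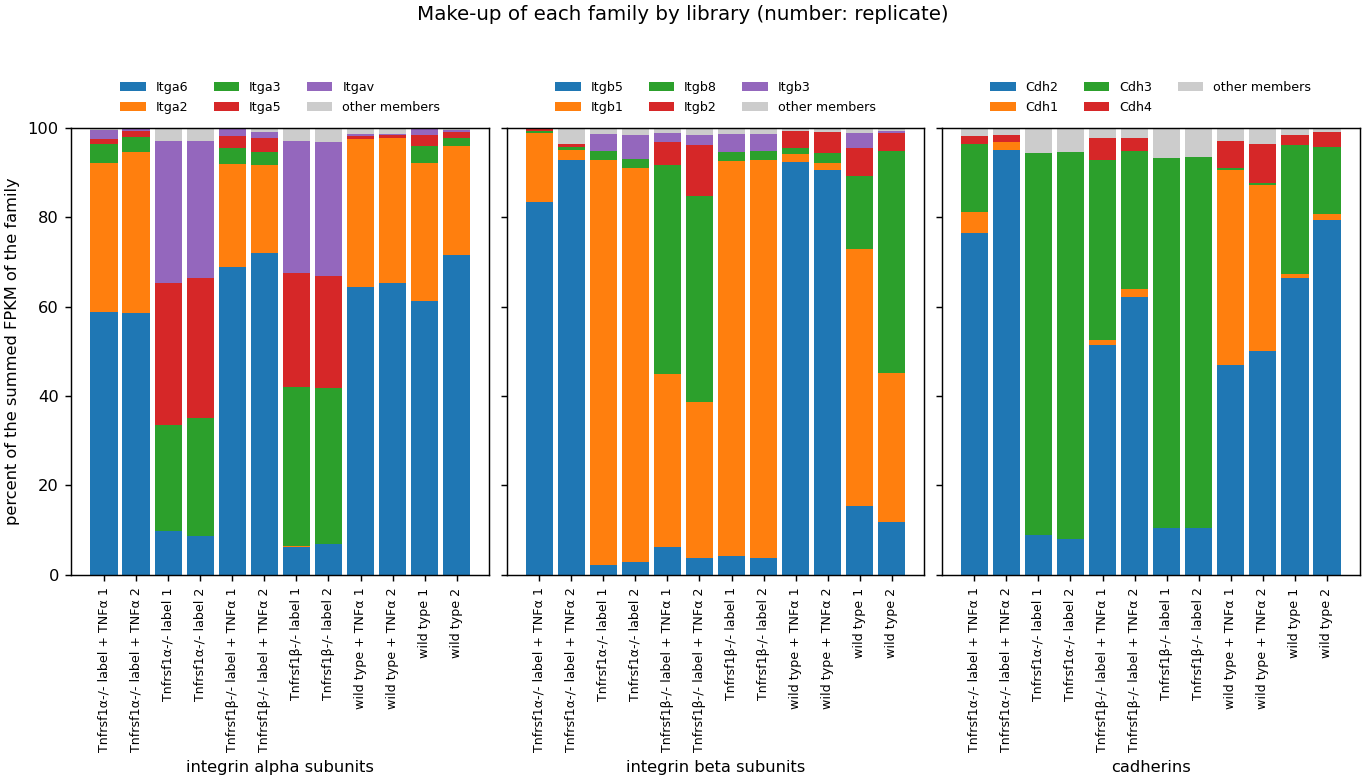
Percent of the summed FPKM of the integrin alpha subunits (left), integrin beta subunits (middle) and cadherins (right) held by the leading members in each of the 12 libraries, as stacked bars. Itga2 and Itga6 give way to Itga3, Itga5 and Itgav in the untreated libraries with a knockout label, and Itgb5 leads in the treated libraries labelled Tnfrsf1α-/- and the treated wild-type ones.

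The promoters of 4 integrin genes with different courses, Itga2, Itga3, Itgb5 and Itgb8, are shown because the series title names YAP, a co-activator that works through TEAD factors. Each holds 250 bases before and 50 after the gene start, 5′ to 3′, on the minus strand of the RefSeq assembly GRCr8. They lie at chr2:48354460-48354759 (Itga2), chr10:80518852-80519151 (Itga3), chr11:80449324-80449623 (Itgb5) and chr6:146351196-146351495 (Itgb8). Capitals mark matches on either strand to the TEAD motif GGAATG and the E-box CACCTG bound by SNAIL and ZEB factors.
Itga2: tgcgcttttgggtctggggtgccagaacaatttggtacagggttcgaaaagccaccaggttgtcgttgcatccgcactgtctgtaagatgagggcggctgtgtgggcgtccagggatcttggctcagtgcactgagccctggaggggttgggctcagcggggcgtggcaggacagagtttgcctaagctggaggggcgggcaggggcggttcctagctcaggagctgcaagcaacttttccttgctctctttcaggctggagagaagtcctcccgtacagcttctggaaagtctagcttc
Itga3: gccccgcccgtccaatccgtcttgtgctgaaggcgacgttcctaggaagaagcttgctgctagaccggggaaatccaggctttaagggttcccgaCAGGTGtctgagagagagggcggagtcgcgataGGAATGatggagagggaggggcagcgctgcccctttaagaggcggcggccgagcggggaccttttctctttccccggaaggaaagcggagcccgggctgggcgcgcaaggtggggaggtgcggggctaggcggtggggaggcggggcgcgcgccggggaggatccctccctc
Itgb5: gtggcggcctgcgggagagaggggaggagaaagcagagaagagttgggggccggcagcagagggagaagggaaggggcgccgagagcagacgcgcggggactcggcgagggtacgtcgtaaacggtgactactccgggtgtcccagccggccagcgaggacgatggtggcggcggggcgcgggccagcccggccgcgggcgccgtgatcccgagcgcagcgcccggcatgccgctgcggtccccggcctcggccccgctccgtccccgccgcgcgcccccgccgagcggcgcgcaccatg
Itgb8: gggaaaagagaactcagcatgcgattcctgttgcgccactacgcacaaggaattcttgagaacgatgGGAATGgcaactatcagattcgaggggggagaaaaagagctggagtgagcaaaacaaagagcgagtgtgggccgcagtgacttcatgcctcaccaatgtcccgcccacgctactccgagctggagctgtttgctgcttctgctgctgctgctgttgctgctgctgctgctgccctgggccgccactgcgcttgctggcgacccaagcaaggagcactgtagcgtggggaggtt
Itga3 holds the TEAD letters at bases 129 to 134 and the E-box on the opposite strand at bases 96 to 101, with no overlap, and Itgb8 holds the TEAD letters at bases 68 to 73. Itga2 and Itgb5 hold none of the motifs searched in this window. Of the 31 tested symbols 19 have a promoter in the table. The TEAD letters were found in 5 of these 19 (Itga2b, Itga3, Itga4, Itgb1 and Itgb8) and in 14.2% of all 33469 promoters, and CACCTG in 3 of 19 (Itga3, Itgae and Pcdhgc3) and in 18.8% of all. The AP-1 letters TGANTCA were found in 0 of 19 and in 7.33% of all, and the NF-kB consensus in 1 of 19 (Itga5) and in 4.18% of all. A match is a run of letters, not a bound site. The Itgb5 promoter is 76.7% G and C and that of Itgb8 57.3%, against a median of 51.7% over all promoters.

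Pcdh7, the protocadherin with the highest mean level over the 12 libraries, had 6.43 and 6.53 in treated and 5.52 and 5.66 in untreated libraries labelled Tnfrsf1α-/-. It had 3.73 and 3.45 in treated and 5.88 and 5.90 in untreated libraries labelled Tnfrsf1β-/-, and 4.09 and 4.64 in treated and 4.33 and 3.45 in untreated wild-type libraries. With TNFα it fell by 2.30 ± 0.30 under the Tnfrsf1β-/- label (adjusted p = 0.000507). Untreated, it was higher than in wild type by 1.70 ± 0.30 and 2.0 ± 0.30 under the Tnfrsf1α-/- and Tnfrsf1β-/- labels (adjusted p = 0.0021 and 0.00106). Pcdh1, an epithelial protocadherin of the airway, had 4.12 and 4.10 in treated wild-type libraries, against 2.33 and 1.24 in untreated ones, a rise of 2.32 ± 0.37 (adjusted p = 0.00113). Pcdh19, whose human gene is linked to epilepsy, had 1.46 and 1.67 in treated and 4.15 and 4.27 in untreated libraries labelled Tnfrsf1β-/-, a fall of 2.64 ± 0.44 (adjusted p = 0.00129), and was listed at 0 in treated wild type.

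The clustered protocadherins passed the filter on 4 of 37 lines only, and their calls depend on how libraries are scaled. Pcdhgc3 had 3.90 and 5.10 in treated and 3.38 and 3.52 in untreated libraries labelled Tnfrsf1α-/-, 2.77 and 2.42 in treated and 4.25 and 4.20 in untreated ones labelled Tnfrsf1β-/-, and 3.68 and 3.64 in treated and 3.34 and 1.42 in untreated wild type. The second of 3 lines named Pcdha4 had 0.95 and 0.78 in treated and 3.0 and 3.07 in untreated libraries labelled Tnfrsf1β-/-, and 0 in both treated against 1.25 and 0.07 in untreated wild type. Reads of the arrays can be shared between near-identical copies, so single members are uncertain. The number that passed for TNFα under the Tnfrsf1β-/- label was 4 lower as deposited, where 42.9% of all tested genes were lower. It was 4 after scaling to equal totals, 2 after median-ratio scaling, 1 with a pseudocount of 0.1 and 0 after quantile normalization. The share of all genes is not given for these 4 alternatives, so their counts cannot be set against it.

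With TNFα in cells labelled Tnfrsf1α-/-, 9 of the 31 tested members passed, 8 higher and 1 lower, where 17.3% of all 11860 tested genes passed, 9.81% higher and 7.5% lower. The 8 were Cdh1, Cdh2, Cdh4, Itga2, Itga3, Itga6, Itgb2 and Itgb5, and the 1 lower was Itgb3. The median of the tested members was 0.14 log2 units and that of all tested genes -0.02. The direction of the split depends on scaling. It was 10 higher and 3 lower after quantile normalization, and 7 and 14 when every library was scaled to the same total FPKM. That last scaling moved the median of all tested genes to -1.39. For other scalings and left-out libraries the share of all genes that passed is not given. Their counts, here and in the comparisons below, cannot be set against it. Without replicate 1 of the treated libraries 19 members passed.

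With TNFα in cells labelled Tnfrsf1β-/-, 20 of 31 passed, 8 higher and 12 lower, where 60.5% of all tested genes passed and 42.9% were lower. Higher were Itga2, Itga6, Cdh4, Itgb2, Itgb8, Cdh1, Cdh2 and Itgae, and the 7 tested protocadherin lines were all lower. The median of the members was -0.76 and that of all genes -0.66. The split was 8 higher and 6 lower after median-ratio scaling, 8 and 7 with quantile-normalized values and 7 and 16 with equal totals. Without replicate 2 of the treated libraries 11 members passed and without replicate 2 of the untreated ones 13.

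With TNFα in wild type, 17 of 31 passed, 13 higher and 4 lower, where 47.2% of all tested genes passed and 31.9% were higher. Cadherins gave 5 of the higher calls, led by Cdh1, Cdh17 and Cdh10, integrin beta subunits 3 (Itgb5, Itgb7 and Itgb2), integrin alpha subunits 4 (Itga4, Itga2b, Itga2 and Itga6) and protocadherins 1 (Pcdh1). Itga3, Itgb3, Cdh11 and Pcdh19 were lower. The median of the members was 0.55 and that of all genes 0.32. The split was 9 higher and 6 lower after median-ratio scaling, 9 and 7 with quantile-normalized values and 9 and 5 with equal totals. Of the 17 calls 11 held under all 21 alternatives, and those of Cdh2, Itga2, Itga2b, Itga6, Itgb3 and Pcdh19 did not.

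**Figure D5:**
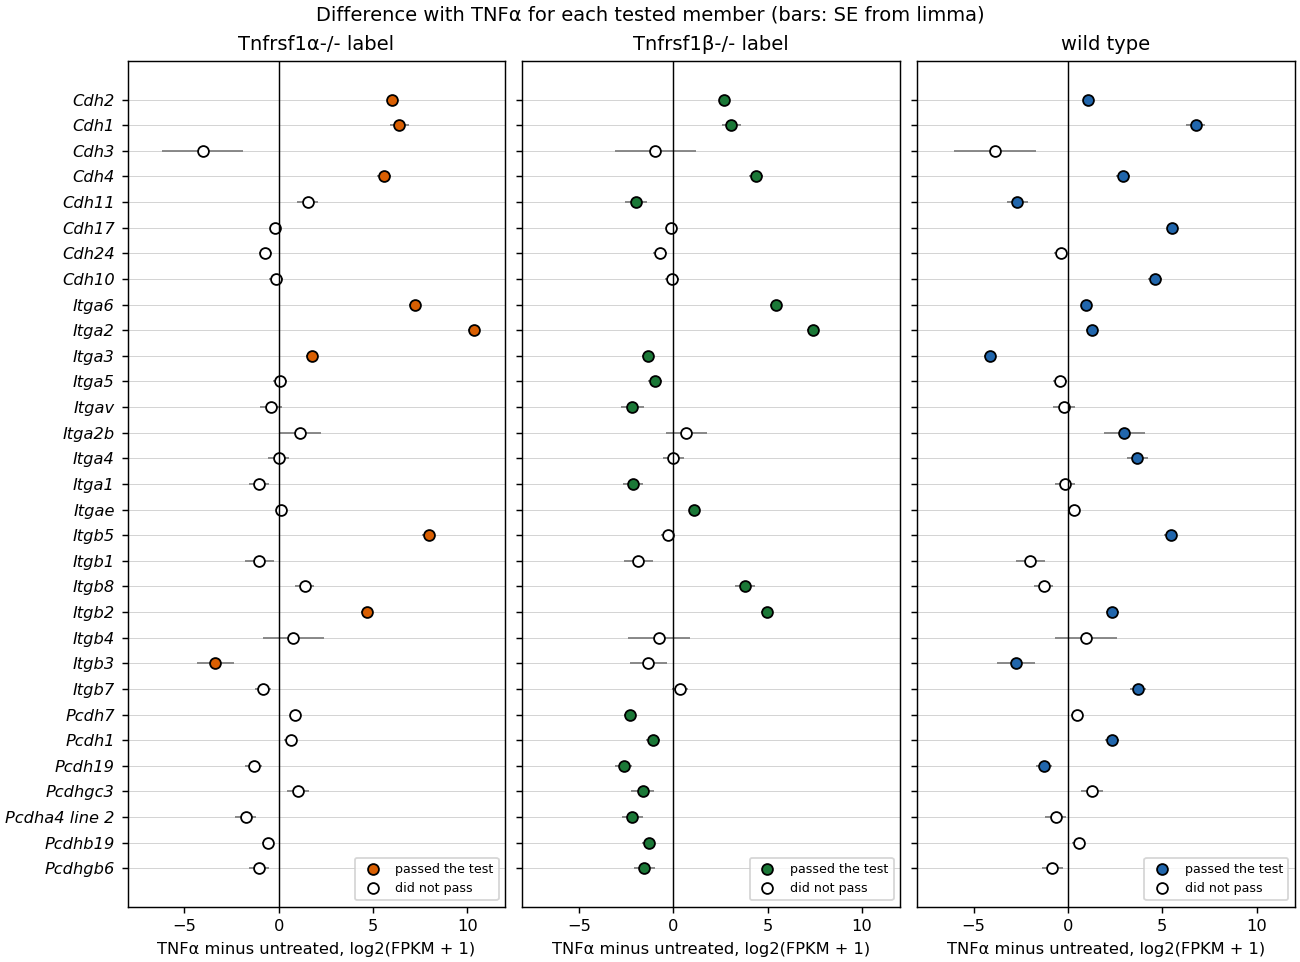
Difference of each tested member between TNFα-treated and untreated libraries in log2(FPKM + 1) on the horizontal axis, for cells labelled Tnfrsf1α-/- (left), cells labelled Tnfrsf1β-/- (middle) and wild type (right), with bars for the SE from limma and filled points for members that passed. Itga2 and Itga6 have their largest differences under the knockout labels, and Itgb5 lies near 0 under the Tnfrsf1β-/- label alone.

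Untreated, 16 of 31 members differed between cells labelled Tnfrsf1α-/- and wild type, 7 higher and 9 lower, where 53.7% of all tested genes passed and 17% were lower. Between cells labelled Tnfrsf1β-/- and wild type 19 differed, 10 higher and 9 lower, where 54.4% passed and 17.5% were lower. The 2 comparisons share the wild-type libraries. Itga2 was the lowest in both, at -8.64 ± 0.32 and -8.62 ± 0.32 (limma adjusted p = 3.06e-07 and 3.28e-07), followed by Itga6 at -5.99 ± 0.28 and -6.19 ± 0.28. Cdh2 was lower by -4.29 ± 0.18 and -4.01 ± 0.18 (adjusted p = 6.97e-07 and 1.08e-06) and Cdh1 by -3.57 ± 0.51 and -3.54 ± 0.51 (adjusted p = 0.000831 and 0.000864). Itgb8 was lower by -3.09 ± 0.52 and -3.22 ± 0.52, and Cdh4 and Itgb2 were listed at 0 in all 4 libraries with a knockout label. The higher members were Pcdh1, Pcdh7, Pcdh19, Pcdhb19, the Pcdha4 line, Itga1 and Itgav in both, with Cdh24, Pcdhgb6 and Pcdhgc3 in the second as well. The median of the members was 0.81 and 0.75, against 0.48 and 0.47 for all genes, and with equal totals, which moved the median of all genes to 1.60 and 1.66, the split was 17 higher and 7 lower and 15 higher and 7 lower. Without wild-type replicate 2, 11 and 10 members passed. Of all tested members 7 lay in these 4 libraries below every value of the other 8 (22.6%, where 13% of all tested genes did): Cdh1, Cdh2, Cdh4, Itga2, Itga6, Itgb2 and Itgb8. A further 4 lay above every value of the other 8 (12.9%, where 20.3% did). These are also the libraries with the low summed FPKM, and the part of that difference was not tested beyond the scalings given.

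With TNFα, 16 of 31 members differed between cells labelled Tnfrsf1α-/- and wild type, 8 higher and 8 lower, where 45.2% of all tested genes passed. Between treated cells labelled Tnfrsf1β-/- and treated wild type 19 differed, 6 higher and 13 lower, where 51% passed and 36.3% were lower. Cdh17 was lower in both comparisons, by -5.66 ± 0.21 and -5.81 ± 0.21 (adjusted p = 7.71e-08 and 4.58e-08), and Cdh1 by -3.93 ± 0.51 and -7.23 ± 0.51 (adjusted p = 0.000392 and 5.05e-06). Cdh2 was 0.66 ± 0.18 higher under the Tnfrsf1α-/- label (adjusted p = 0.0176), a call lost after median-ratio scaling (adjusted p = 0.0751) and in a fit of the 2 groups alone (adjusted p = 0.131), and 2.36 log2 units lower under the Tnfrsf1β-/- label (SE 0.18, adjusted p = 9.5e-06). Itgb1 was 2.69 ± 0.76 higher under the Tnfrsf1α-/- label (adjusted p = 0.0203), with replicates of 9.72 and 6.78, and this did not pass in the fit of the 2 groups alone (adjusted p = 0.168), where 9 members passed in all. The median of the members was 0.66 and -0.78, against 0.08 and -0.41 for all genes. Treated wild-type libraries lay above all others for 8 tested members (25.8%, where 24.6% of all tested genes did) and below all others for 6 (19.4%, where 15.4% did), shares close to those of all genes.

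The response to TNFα itself differed from that of wild type for 14 of 31 members under the Tnfrsf1α-/- label, 9 higher and 5 lower, where 34.8% of all tested genes passed, and for 18 under the Tnfrsf1β-/- label, 7 higher and 11 lower, where 64.5% passed and 47.3% were lower. Itga2, Itga6, Itga3, Cdh2, Cdh4, Itgb2 and Itgb8 responded with a higher difference than wild type under both labels. The call of Cdh4 under the Tnfrsf1β-/- label was lost without either untreated library labelled Tnfrsf1α-/-, a group outside that contrast. That of Itgb8 under the Tnfrsf1α-/- label was lost in a fit of the compared groups alone. Cdh17, Cdh10, Itga4, Itgb7 and Pcdh1 responded with a lower one under both. Itgb5 was above wild type under one label and below it under the other. The split under the Tnfrsf1α-/- label was 9 and 8 with equal totals, and under the Tnfrsf1β-/- label 9 and 7 after quantile normalization. The median was -0.19 and -1.35, against -0.44 and -1.11 for all genes.

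The proteins that work with these receptors were read from 4 further lists. Their counts stand beside those of all tested genes given above: with TNFα 9.81% passed as higher and 7.5% as lower under the Tnfrsf1α-/- label, 17.6% and 42.9% under the Tnfrsf1β-/- label, and 31.9% and 15.3% in wild type, with medians of -0.02, -0.66 and 0.32. Of 10 catenins and other cadherin tail partners 9 were tested. Pkp4 (plakophilin 4), a p120 catenin relative, had 10.18 and 10.17 in treated and 3.07 and 3.05 in untreated libraries labelled Tnfrsf1α-/-, 7.86 and 7.93 in treated and 3.35 and 3.47 in untreated ones labelled Tnfrsf1β-/-, and 10.03 and 10.10 in treated and 9.44 and 9.66 in untreated wild type. It thus followed the libraries of Cdh2. Ctnna1 and Ctnnb1, the alpha and beta catenins that bind classical cadherins, lay between 4.83 and 7.73. With TNFα they fell under the Tnfrsf1β-/- label, with differences of -1.75 and -1.74 (limma adjusted p = 0.00375 and 0.00803), and untreated both were higher under either knockout label than in wild type, by 1.43 to 1.80. With TNFα 1 catenin was higher and 0 lower under the Tnfrsf1α-/- label, 1 and 4 under the Tnfrsf1β-/- label, and 1 and 1 in wild type, with medians of -0.10, -0.41 and 0.26.

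Of 34 genes of the integrin adhesion complex 33 were tested. With TNFα 4 were higher and 1 lower under the Tnfrsf1α-/- label, 4 and 14 under the Tnfrsf1β-/- label, and 7 and 12 in wild type, with medians of 0.13, -0.86 and -0.48. Parva (alpha-parvin), which links integrin-linked kinase to actin, had 10.64 and 10.67 in treated and 6.66 and 6.64 in untreated libraries labelled Tnfrsf1α-/-, 5.85 and 5.15 in treated and 6.89 and 6.91 in untreated ones labelled Tnfrsf1β-/-, and 10.73 and 10.93 in treated and 6.11 and 5.97 in untreated wild type. It was therefore high in the 4 libraries in which Itgb5 was high. Cd47, a surface partner of Itgav and Itgb3, was listed at 0 in both treated wild-type libraries and had 4.10 to 5.56 in the other 10. Tns1 (tensin 1), an actin linker of integrin tails, had 6.53 and 6.11 in treated and 4.17 and 4.38 in untreated libraries labelled Tnfrsf1α-/-, 9.16 and 9.35 in treated and 5.21 and 5.21 in untreated ones labelled Tnfrsf1β-/-, and 6.71 and 6.26 in treated and 10.08 and 10.38 in untreated wild type. It thus went up with TNFα under both knockout labels, by 2.04 ± 0.23 and 4.05 ± 0.23 (limma adjusted p = 0.000293 and 5.05e-06), and down in wild type, with a difference of -3.74 ± 0.23 (adjusted p = 1.72e-06). Tgfb1i1 (Hic-5), a focal adhesion adaptor, had 0.27 and 0.14 in treated wild type and 3.62 to 5.70 in the other 10 libraries.

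Of 31 desmosome and tight junction genes 14 were tested, and with TNFα 1 was higher and 1 lower under the Tnfrsf1α-/- label, 0 and 5 under the Tnfrsf1β-/- label, and 5 and 1 in wild type, with medians of -1.46, -1.13 and 0.34. Cldn2, a pore-forming claudin, had 4.25 and 4.18 in treated wild-type libraries and at most 0.03 elsewhere. Tjp3 (ZO-3) had 3.61 and 3.52 there, against 0.47 and 0.41 in untreated wild type and 1.2 to 1.58 in untreated libraries with a knockout label. Cldn12 had 3.59 and 3.30 there and at most 2.89 elsewhere. These 3 genes were highest where Cdh1 and the hepatocyte markers were highest, as were 24.6% of all tested genes. What part the markers have in it was not tested. Cgn was not highest there. It had 7.42 and 7.70 in treated wild type, and 7.55 and 8.01 in treated libraries labelled Tnfrsf1α-/-, which did not hold the hepatocyte markers. Of 18 other genes of the cadherin superfamily 5 were tested, with 0 higher and 0 lower, 0 and 3, and 1 and 2 in the same 3 comparisons. Clstn1 (calsyntenin 1) had 0.36 and 0.36 in treated wild type and 5.24 to 6.64 in the other 10 libraries, and Cdhr5, a cadherin of the brush border, had 3.87 and 3.73 there and at most 0.61 elsewhere.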

How the data were processed

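RNA-seq libraries were made from 1 ug of Trizol-extracted total RNA with an Illumina TruSeq kit, per the labels' protocols. The authors deposited 1 table of FPKM values on a log2 scale for 12 libraries; no source used here names the aligner, counter, build or annotation. The scale was inferred as log2(FPKM + 1) from values of 0 to 16.8, so with another base every difference would change. FPKM is a share of a library, and without counts the depth is unknown and intervals for counting error cannot be given. Lines with no symbol (346 of 22730) were left out, and the 1835 that share a symbol were kept apart.

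The test was limma (version 3.58.1, in R version 4.3.3) on the deposited values of the 11860 genes with a mean of at least 1 FPKM. The pseudocount of 1 makes changes of low genes look smaller. All 12 libraries entered 1 fit of 6 group means, with a trended empirical Bayes prior and no block, which gave 9 contrasts, with two-sided p-values adjusted by Benjamini-Hochberg over all tested genes of a contrast and a threshold of 0.05. Every adjusted p is from limma. The fit was run on simulated data in which a gene had the same spread in every group. The pairs here differ in spread, so that run does not vouch for the shared estimate. Alternatives were a pseudocount of 0.1, no filter, median-ratio and quantile scaling, the compared groups alone, a replicate block, leaving out libraries and, chosen after seeing the data, equal totals. Members and lists were chosen with earlier results of these data known. Named are Cdh1 and Cdh2 in every contrast, up to 5 called members at each end of a contrast, other tested members by level, and up to 4 genes of a partner list. Of 96 member symbols 92 are in RefSeq GRCr8, which was used for names, neighbours and promoters. The build of the table is not given, so no position is printed for its lines.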

Additional observations from a re-analysis of the deposited data

Results flagged for a closer look

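The tests of the difference in response to TNFα against wild type passed for 14 of 31 members (45.2%) under the Tnfrsf1α-/- label. Under the Tnfrsf1β-/- label 18 passed (58.1%). Of all tested genes 34.8% and 64.5% passed, so the second share was below that of all genes. Under the Tnfrsf1α-/- label the signed response, in log2(FPKM + 1) units, was above that of wild type by 9.10 for Itga2 and 6.23 for Itga6. For Itga3, Cdh2 and Cdh11 it was 5.95, 4.95 and 4.23 above. Itga3 and Cdh11 fell with TNFα in wild type and were higher with it under this label. The response differed from wild type by -5.71 for Cdh17, -4.74 for Cdh10, -4.53 for Itgb7, -3.67 for Itga4 and -1.69 for Pcdh1. The last did not pass in 10 of 19 alternatives. Under the Tnfrsf1β-/- label the signed response was above that of wild type by 6.15 for Itga2, 5.10 for Itgb8 and 4.46 for Itga6. For Itga3, Itgb2 and Cdh2 it was 2.81, 2.60 and 1.65 above. Itga3 fell with TNFα in both, and less under this label. The response differed by -5.73 for Itgb5, -5.65 for Cdh17, -4.63 for Cdh10, -3.69 for Cdh1 and -3.67 for Itga4. Both sets share the wild-type libraries, so their like signs are not independent. Cdh10, Cdh17, Itga4 and Itgb7 were highest in the 2 treated wild-type libraries, which alone held the hepatocyte markers (summed level 57.2 and 57.5), and the part of those cells or genes was not tested. Itga2, Itga6, Itgb2, Itgb8, Cdh1 and Cdh2 started, in untreated libraries with a knockout label, from levels below every value of the other libraries. The summed FPKM of those untreated libraries was at most 472935.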

How the results depend on the processing

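Another scaling, filter or set of libraries moved some counts. With TNFα under the Tnfrsf1α-/- label 21 members passed with equal totals, where the median of all tested genes moved from -0.02 to -1.39. Without the filter on low values, every member line above 0 in any library was tested, so the counts are not out of 31. There 36 passed with TNFα under the Tnfrsf1β-/- label. Between untreated cells and wild type 33 and 38 passed for the Tnfrsf1α-/- and Tnfrsf1β-/- labels, and 29 between treated cells labelled Tnfrsf1α-/- and wild type. In that last comparison 9 of 31 passed in a fit of the compared groups alone. The share of all genes that passed is not given for these alternatives or those below, so the counts cannot be set against it. Leaving out 1 library at a time gave 7 to 19, 11 to 23 and 12 to 22 members with TNFα under the Tnfrsf1α-/- label, the Tnfrsf1β-/- label and in wild type. It gave 11 to 23 and 10 to 24 for the untreated and 11 to 22 and 13 to 27 for the treated comparisons of Tnfrsf1α-/- and Tnfrsf1β-/- labels with wild type, and 12 to 21 and 15 to 24 for the differences in response. Where an arm is left with 1 library, that library is assumed to vary like the other groups. The replicate numbers were not taken to pair the libraries, because the labels do not say that a number marks a shared culture or day. Deviations from group means correlated above 0.1 in 9 of 15 pairs of groups, over a range of -0.17 to 0.24. Every pair with untreated cells labelled Tnfrsf1β-/- was negative (-0.169 to -0.075), as was untreated wild type with untreated cells labelled Tnfrsf1α-/- (-0.057). The correlations do not settle whether the numbers pair the libraries. With the replicate block, 10, 20 and 17 members passed with TNFα in the 3 genotypes in the same order, and 14 and 19 for the differences in response, with Itgb1 among the calls gained (TNFα under the Tnfrsf1β-/- label and in wild type) and Itga5 and Itga2b lost there. Cdh1 minus Cdh2 moved, without a change of sign, to -8.49 with a pseudocount of 0.1, -5.01 with median-ratio scaling, -5.45 with quantile normalization and -6.27 with equal totals in untreated cells labelled Tnfrsf1α-/-. It moved to -8.54, -5.28, -5.88 and -6.56 in untreated cells labelled Tnfrsf1β-/-, and with quantile normalization to -4.41 in treated cells labelled Tnfrsf1β-/- and -5.43 in untreated wild type. For Cdh1, the difference of response between the Tnfrsf1α-/- label and wild type was -1.20 without replicate 1 of the treated libraries labelled Tnfrsf1α-/- and turned positive elsewhere: 2.75 with a pseudocount of 0.1 (adjusted p = 0.0265), 0.82 after quantile normalization, 0.0084 without replicate 1 of treated wild type and 0.48 without replicate 2 of the treated libraries labelled Tnfrsf1α-/-. The cause was not tested. Of 1884 values of single genes under an alternative, 1784 kept direction and call, 96 no longer passed and 4 changed sign. These values cover only Cdh1, Cdh2 and the called members at the ends of each contrast. Many alternatives leave out a library of a group outside the contrast, where the difference itself cannot move. The 1784 is therefore no measure of how stable the other calls are. Scaling cannot be settled from FPKM alone, because summed FPKM differs with the group, and with 2 libraries a group a single library can decide a call.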
